A study of Triticum aestivum with 4 samples.

Results

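The wheat genes followed here in the heated flag leaf, grouped as defence proteins, are xip (LOC542997), PR5 (LOC543292), PER1 (LOC543108) and LTP3 (LOC543095). They were selected by name, as every probe set whose annotated gene carries one of these symbols or synonyms, and the 4 names were chosen with earlier results of these data known. The rule found 4 genes of the 771 with an annotated probe set, and 7 probe sets of 61179 on the array. RNA came from flag leaves of the cultivar TAM 107 at about 10 days after pollination, from plants taken from the field into pots before flowering and heated in a growth chamber. The heat group has 2 arrays, from plants held for 1 h at 40 °C, and the control group has 2 arrays, from plants under normal growth conditions. A transfer of control plants to a chamber is not mentioned in the labels, so transfer and heat cannot be told apart. Whether replicates were separate plants or pools is not stated either, and a p-value then reflects only array-to-array spread, which may be technical.

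The names xip, PR5 and LTP3 stand for kinds of protein that plants make against microbes and that are mostly secreted into the cell wall space. Xylanase inhibitor proteins bind microbial xylanases, enzymes that break down the xylan of grass cell walls, and are related in fold to chitinases. PR5 proteins are thaumatin-like pathogenesis-related proteins, many of which act on fungal membranes. Non-specific lipid transfer proteins are small proteins with a hydrophobic cavity that carry lipids, serve the cuticle, and in several cases have antimicrobial activity. What PER1 encodes is less certain: the gene table gives the synonym peroxidase, but in barley the name PER1 belongs to a peroxiredoxin, an antioxidant of the seed, and the files do not settle which of these the wheat gene is.

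The values are MAS5 signals, a linear intensity with 1 value per probe set and array, scaled by the authors to a common trimmed mean (500.1 on each array). Each probe set has its own probes, so signals of different genes are not compared as levels. Replicate arrays correlated across the tested probe sets at r = 0.977 in heat and r = 0.979 in control, against 0.914 to 0.915 between groups. The heat-inducible chaperone gene hsp16.9A, which checks the labels, had signals of 19520 and 19269 on the heat arrays, against 197 and 189 on the control arrays. All 4 leaf genes examined (PRK, PsbO, PsbP and rbcL) were bright on every array, between 31570 and 61145. On the authors' scaling 3 of them (PsbO, PsbP and rbcL) were called higher in heat by limma, and other scalings were not examined for them. The summed signal of the 4 was 209613 and 203672 in heat and 149575 and 166004 in control. Of 16 genes of grain proteins, 8 of them also in the defence list given further on, 6 reached the brightness needed for testing. In limma 0 of these passed the threshold (0 before adjustment too). The summed signal of these 16 was 9017 and 8855 in heat and 8954 and 9002 in control. The avenin-like gene ALP alone had 7909 and 7725 in heat and 7865 and 7975 in control, and such sums serve only as a check between groups.

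A probe set was tested when its mean log2 signal over the 4 arrays reached 6.11, the median of the array (a signal of 69.1). Of the 7 probe sets of the 4 genes, 6 were tested and 1, for PER1, was below this brightness. With limma and an adjusted p below 0.05, 3 of the 6 were higher in heat, 1 was lower and 2 did not pass. The same test called 37.0% of all 30590 tested probe sets, 14.2% higher and 22.9% lower in heat. With each array centred on its median the calls over the array split into 5839 higher and 4632 lower, against 4339 and 6993 on the deposited scaling. Among the 6118 probe sets of the brightest of 5 classes (signals from 1652 to 55380), which holds all 4 probe sets that passed, 64.9% were called. The median log2 fold change was 0.29 over the 6 tested probe sets, -0.15 over all tested and -0.03 in the brightest class. The 6 hold 2 probe sets each of xip and LTP3. Their median falls between the 2 values of LTP3 (0.36 and 0.22), so it does not describe a shift of the 4 genes. For a single gene, the smallest two-sided p of an exact permutation test with 2 arrays per group is 0.333, so the limma fit over all probe sets was used throughout. In a whole leaf, fewer cells of a type and less RNA per cell cannot be told apart.

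**Figure D1:**
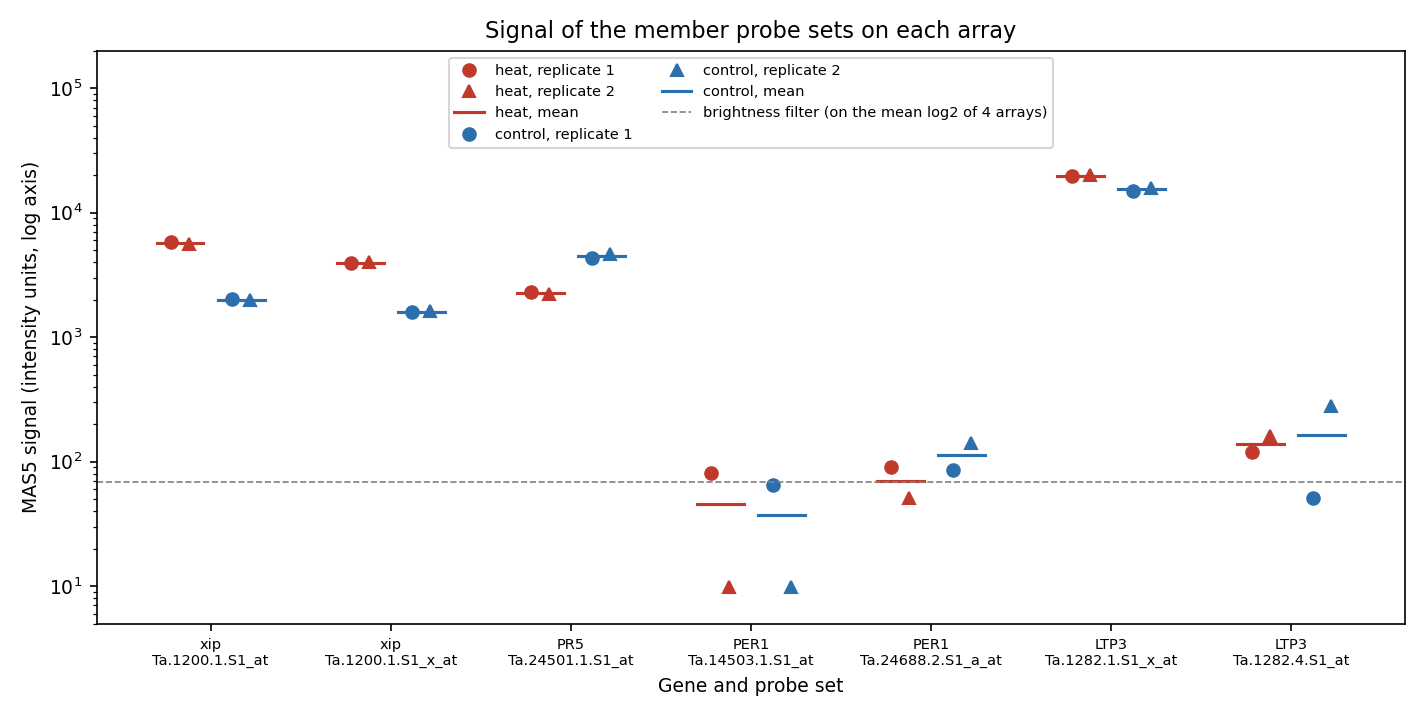
Signal of the 7 probe sets of xip, PR5, PER1 and LTP3 on each array (log axis, intensity units). Heat arrays are red and stand left of the blue control arrays, circles are replicate 1, triangles replicate 2, and bars the mean of 2 arrays. The groups stand apart for both probe sets of xip, for PR5 and for Ta.1282.1.S1_x_at of LTP3, and overlap for the other 3. With 2 arrays per group such a separation has a two-sided p of 0.333 in an exact permutation test. Its share over all probe sets of the array was not counted, so separation alone does not set these genes apart from others. By limma 37.0% of all tested probe sets were called, and 64.9% of the brightest class, to which the probe sets standing apart belong.

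The xylanase inhibitor gene xip rose on both of its probe sets, and this was the largest change among the 4 genes. On Ta.1200.1.S1_at the signals were 5837 and 5586 on the heat arrays, against 2030 and 1979 on the control arrays. Both heat values lay far above both control values, and replicates of either group lay close together. The means were 5712 ± 177 in heat and 2004 ± 36.4 in control (SD, n = 2 each), a 2.85-fold rise with a 95% interval of 2.58-fold to 3.15-fold (adjusted p = 1.50e-06 in limma, log2 1.51 ± 0.06 SE).

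The second probe set of xip, Ta.1200.1.S1_x_at, was designed on the same transcript. Its suffix marks probes that can also match other transcripts. Its signals were 3936 and 3992 in heat, against 1595 and 1612 in control, again without overlap. The increase was 2.47-fold (log2 1.31 ± 0.06 SE, 95% interval 1.16 to 1.45, adjusted p = 3.71e-06 in limma). Whether the fold changes of the 2 probe sets differ was not tested, and their intervals overlap. Both lay in the brightest of the 5 classes (signals from 1652 to 55380), whose median log2 fold change was -0.03. Of that class 5.92% had a higher log2 fold change than the first probe set and 7.04% than the second. Across all 4 scalings of the arrays the log2 fold change of Ta.1200.1.S1_at stayed between 1.47 and 1.67 and that of Ta.1200.1.S1_x_at between 1.29 and 1.46.

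PR5, the thaumatin-like gene, fell. Its single probe set, Ta.24501.1.S1_at, had signals of 2314 and 2228 on the heat arrays, against 4359 and 4663 on the control arrays. Both heat values lay below both control values. The means were 2271 ± 60.9 in heat and 4511 ± 215 in control (SD, n = 2 each), so the signal in control was 1.99 times that in heat (log2 -0.99 ± 0.07 SE, 95% interval -1.14 to -0.83, adjusted p = 2.12e-05 in limma). Of its brightness class, the same as for xip, 4.07% had a lower log2 fold change. Under the 4 scalings the value for PR5 ranged from -1.04 to -0.83. Signals of xip and PR5 thus differed in opposite directions between the same 2 heat and 2 control arrays, each by more than its replicates differed.

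**Figure D2:**
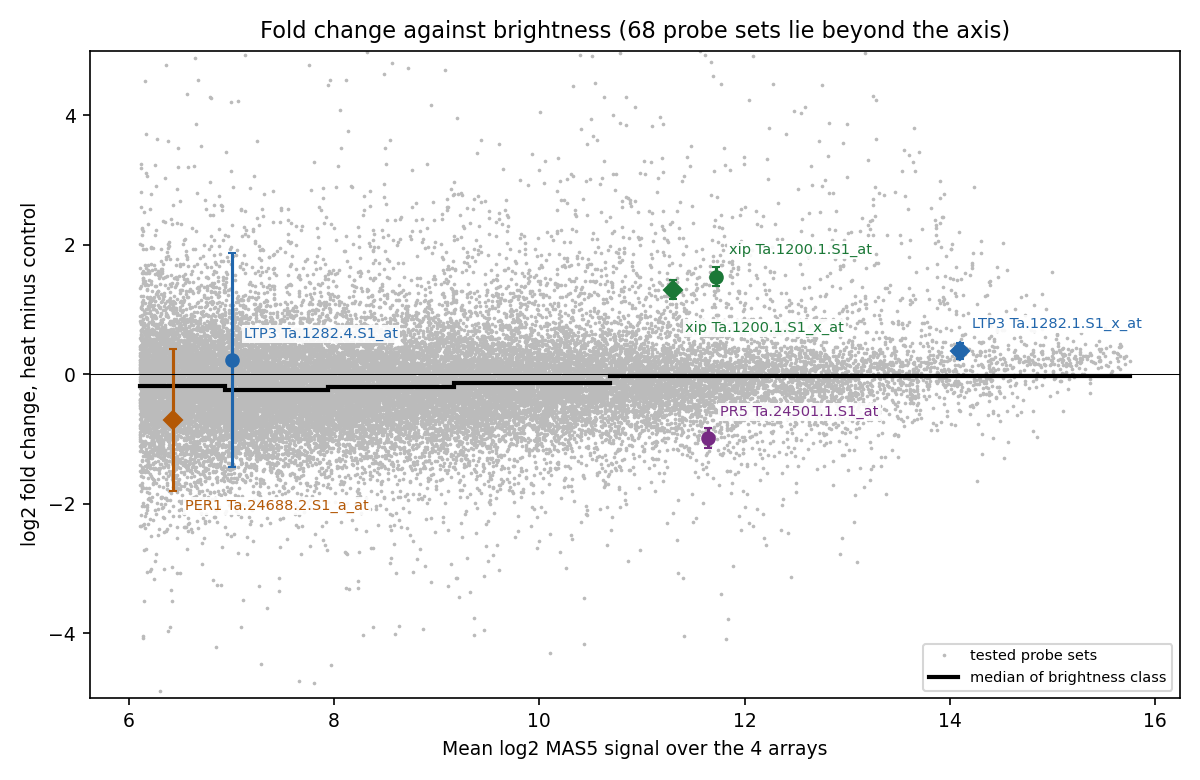
Log2 fold change (heat minus control) against the mean log2 signal of the 30590 tested probe sets (grey), with the 6 tested probe sets of xip, PR5, PER1 and LTP3 in colour, their 95% intervals, and black bars for the median of each of 5 brightness classes. Diamonds are probe sets whose probes may bind more than 1 transcript. The xip probe sets lie at 1.51 and 1.31 and PR5 at -0.99, where the median of their brightness class is -0.03.

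LTP3, the lipid transfer protein gene, was slightly higher in heat on 1 of its 2 probe sets, and this call depended on the scaling. On Ta.1282.1.S1_x_at, which can match several transcripts, the signals were 19717 and 20033 in heat, against 15056 and 15835 in control. The groups did not overlap. The rise was 1.29-fold (log2 0.36 ± 0.05 SE, 95% interval 0.24 to 0.48, adjusted p = 0.00115 in limma). Under quantile normalization it was log2 0.05 (adjusted p = 0.34), under cyclic loess 0.22 (adjusted p = 0.00257) and with median centring 0.52 (adjusted p = 0.000633). Of the probe sets of its brightness class, 22.0% had a higher log2 fold change. That class spans signals from 1652 to 55380 and so reaches far below this probe set. A comparison with only those probe sets as bright as this was not made. The highest signal of any probe set was 62439 and 62032 on the heat arrays, against 52311 and 52772 on the control arrays. The 4 leaf genes, brighter still than this probe set, stood at log2 0.15 (PRK), 0.35 (PsbO), 0.34 (PsbP) and 0.72 (rbcL). Whether the rise of LTP3 goes beyond that of other very bright probe sets was not tested.

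The second probe set of LTP3, Ta.1282.4.S1_at, gave no clear value. Its signals were 120 and 159 in heat, against 50.8 and 279 in control. The 2 control arrays lay on either side of both heat arrays. The log2 fold change was 0.22 with a 95% interval of -1.44 to 1.87 (adjusted p = 0.839, limma), which includes the value of the first probe set and also falls of more than 2-fold. Its direction hung on single control arrays, at log2 -1.01 without control replicate 1 and 1.45 without control replicate 2.

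The identifiers of both LTP3 probe sets begin with Ta.1282, the number of the transcript cluster from which the array was designed. The array has 3 more probe sets of that cluster, assigned to LOC100037539 and LOC778422, which have no other name here. They were looked up after their values had been seen. Ta.1282.2.S1_x_at was at 42681 and 41354 in heat, against 26186 and 28412 in control, 1.54-fold higher (adjusted p = 0.000113 in limma, log2 0.62 ± 0.06 SE). Ta.1282.2.S1_at stood at log2 0.38 and Ta.1282.3.S1_x_at at 0.45, both past the threshold on the deposited scaling. Under quantile normalization these 3 stood at 0.34, 0.02 and 0.08, and only Ta.1282.2.S1_x_at still passed (adjusted p = 0.000153, limma). Without the intensity trend the calls of Ta.1282.2.S1_at and Ta.1282.3.S1_x_at were lost (adjusted p = 0.0852 and 0.0588), and with unmoderated t statistics those of all 3 (adjusted p = 0.144 and 0.113 for these, 0.0704 for Ta.1282.2.S1_x_at). How far probes of LTP3 and of these 2 genes bind each other's transcripts was not tested.

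PER1 had low signals on both probe sets and no call. On Ta.24688.2.S1_a_at the signals were 90.1 and 50.9 in heat, against 85.2 and 142 in control. The groups overlapped, with heat replicate 1 above control replicate 1. The log2 fold change was -0.70 ± 0.47 SE (95% interval -1.80 to 0.40, adjusted p = 0.288 in limma), so neither a large fall nor a small rise is left out by its interval. Leaving out 1 array at a time gave log2 -1.11 to -0.29, all without a call. The other probe set, Ta.14503.1.S1_at, was below the brightness filter. It had 81.4 and 9.91 in heat, against 65.1 and 9.88 in control. Replicate 1 was the higher array in both groups, by more than arrays of the same number differed between the groups. Fitted without the filter, this probe set was at log2 0.16 with an interval of -3.00 to 3.32 (adjusted p = 0.961, limma).

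The array has 1 further probe set of the cluster Ta.24688, Ta.24688.1.S1_at, for which the annotation used here gives no gene. It was looked up after the other values had been seen. It had 135 and 123 in heat, against 339 and 280 in control, without overlap. It fell (log2 -1.26 ± 0.24 SE, 95% interval -1.81 to -0.71, adjusted p = 0.00469 in limma), a call lost without control replicate 1 (log2 -1.12, adjusted p = 0.0505) and with unmoderated t statistics (adjusted p = 0.0825). The interval of the PER1 probe set of that cluster overlaps it, and the cluster number alone does not make it a PER1 transcript. No other cluster of the 4 genes had a further probe set on the array.

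**Figure D3:**
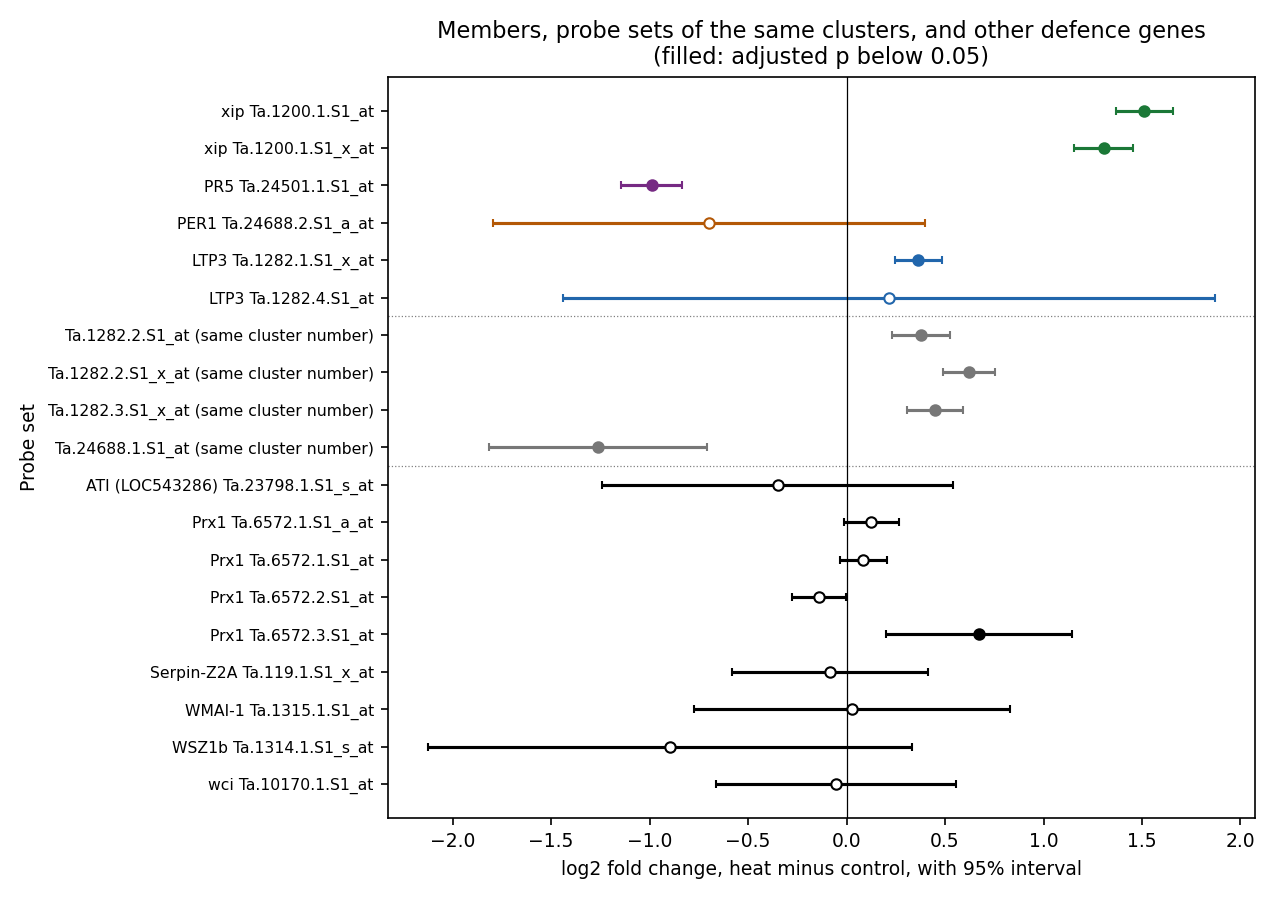
Log2 fold change (heat minus control) with 95% intervals for the 6 tested probe sets of xip, PR5, PER1 and LTP3 (top), the 4 other probe sets of the same transcript clusters (grey), and the 9 tested probe sets of other defence genes (black). Filled points passed at an adjusted p below 0.05. Among the other defence genes 1 probe set is filled, Ta.6572.3.S1_at of Prx1 at 0.67.

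Other defence genes with a name were few and mostly dim. A list of 14 such genes held serpins, which inhibit proteases, thionins, which are antimicrobial peptides, inhibitors of amylases, the wheat germ agglutinin WGA2, Prx1 and wci. Many of them are known from the grain. Of their 22 probe sets 9 were tested, and 6 genes had at least 1. By its brightest tested probe set, 0 of the 6 genes passed in either direction in limma, and 0 were at an unadjusted p below 0.05. Of all tested probe sets 37.0% passed, but in the 2 dimmest of the 5 brightness classes, where 4 of the 6 genes lie, 9.43% and 20.1% did. Serpin-Z2A lies in the middle class, where 36.8% passed, and Prx1 in the brightest, where 64.9% did. With unmoderated t statistics 1 of the 6 genes passed. Their median log2 fold change was -0.07, against -0.15 over all tested probe sets, and their values ran from -0.90 to 0.08. The sign of that median turned under the other 3 scalings (0.03 to 0.09).

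Prx1, whose symbol may stand for a peroxidase or a peroxiredoxin, had 4 tested probe sets that disagreed. Ta.6572.3.S1_at rose, with 429 and 494 in heat, against 245 and 340 in control (log2 0.67 ± 0.20 SE, adjusted p = 0.0345 in limma). That call was lost in 5 of 13 other settings: without the brightness filter (adjusted p = 0.058), without the intensity trend (0.0993), with unmoderated t statistics (0.249), without heat replicate 2 (log2 0.57, adjusted p = 0.119) and without control replicate 1 (log2 0.44, adjusted p = 0.167). The other 3 stood at 0.12, 0.08 and -0.14 and did not pass on the deposited scaling. With median centring Ta.6572.1.S1_a_at and Ta.6572.1.S1_at passed as higher (log2 0.28 and 0.24, adjusted p = 0.0173 and 0.0212 in limma). Ta.6572.1.S1_at also passed with unmoderated t statistics (adjusted p = 0.0482). Under quantile normalization Ta.6572.2.S1_at passed as lower (log2 -0.21, adjusted p = 0.0229 in limma). The serpin WSZ1b had 36.1 and 90.6 in heat, against 114 and 99.9 in control (log2 -0.90 ± 0.53 SE, adjusted p = 0.227 in limma). The serpin Serpin-Z2A stood at -0.08, the amylase inhibitor WMAI-1 at 0.03, wci at -0.05 and the amylase and trypsin inhibitor ATI (LOC543286) at -0.35, all without a call. The other 8 genes had no tested probe set. They are the thionins THI1.1, THI1.2, THI1.3 and TTHV, Serpin-Z1C, Serpin-Z2B, WGA2 and ATI (LOC543281).

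Likeness to other named genes was measured as the Euclidean distance between log2 values on the 4 arrays, each taken relative to the mean of the control arrays. For each tested probe set of the 4 genes it was computed against 70 other genes with a name. It describes mainly how alike 2 changes were in size, since the 4 arrays form 2 groups. Nearest to PR5 were the beta-tubulin Tubb5 (distance 0.08, log2 fold change -1.005), the phytochelatin synthase PCS1 (0.17 and -0.97) and SAHH, adenosylhomocysteinase (0.29 and -0.79). Nearest to Ta.1282.1.S1_x_at of LTP3 were PsbO (0.04 and 0.35), AGP-S of starch synthesis (0.06 and 0.33) and PsbP (0.06 and 0.34), the first and last of these being photosystem II proteins.

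The named genes nearest to xip lay further away. Those nearest to Ta.1200.1.S1_at were PEAMT1, a methyltransferase of choline synthesis, at a distance of 1.12, rbcL at 1.13 and the cation channel gene TaTPC1 at 1.39, with log2 fold changes of 0.74, 0.72 and 0.53. The same 3 genes were nearest to Ta.1200.1.S1_x_at, at 0.82, 0.84 and 1.101. For Ta.24688.2.S1_a_at of PER1 they were EM (0.40), wcH2B-8 (0.46) and H2A-9 (0.73). For Ta.1282.4.S1_at of LTP3 they were a low-molecular-weight glutenin gene (1.01), COMT1 (1.63) and TSA (1.64). These last 2 sets of distances carry the large replicate spread of the probe sets they refer to.

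The replicate spread also set what could be seen for each gene. The SD between replicates on the log2 scale was 0.04 in heat and 0.03 in control for Ta.1200.1.S1_at and 0.04 and 0.07 for PR5, close to the medians of 0.05 and 0.05 at that brightness. For Ta.24688.2.S1_a_at of PER1 it was 0.58 in heat and 0.52 in control, where the medians at that brightness were 0.31 and 0.27. For Ta.1282.4.S1_at of LTP3 it was 0.29 in heat and 1.74 in control, where the medians were 0.21 and 0.18. A change of the size seen for xip or PR5 would therefore not have been resolved on Ta.1282.4.S1_at.

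**Figure D4:**
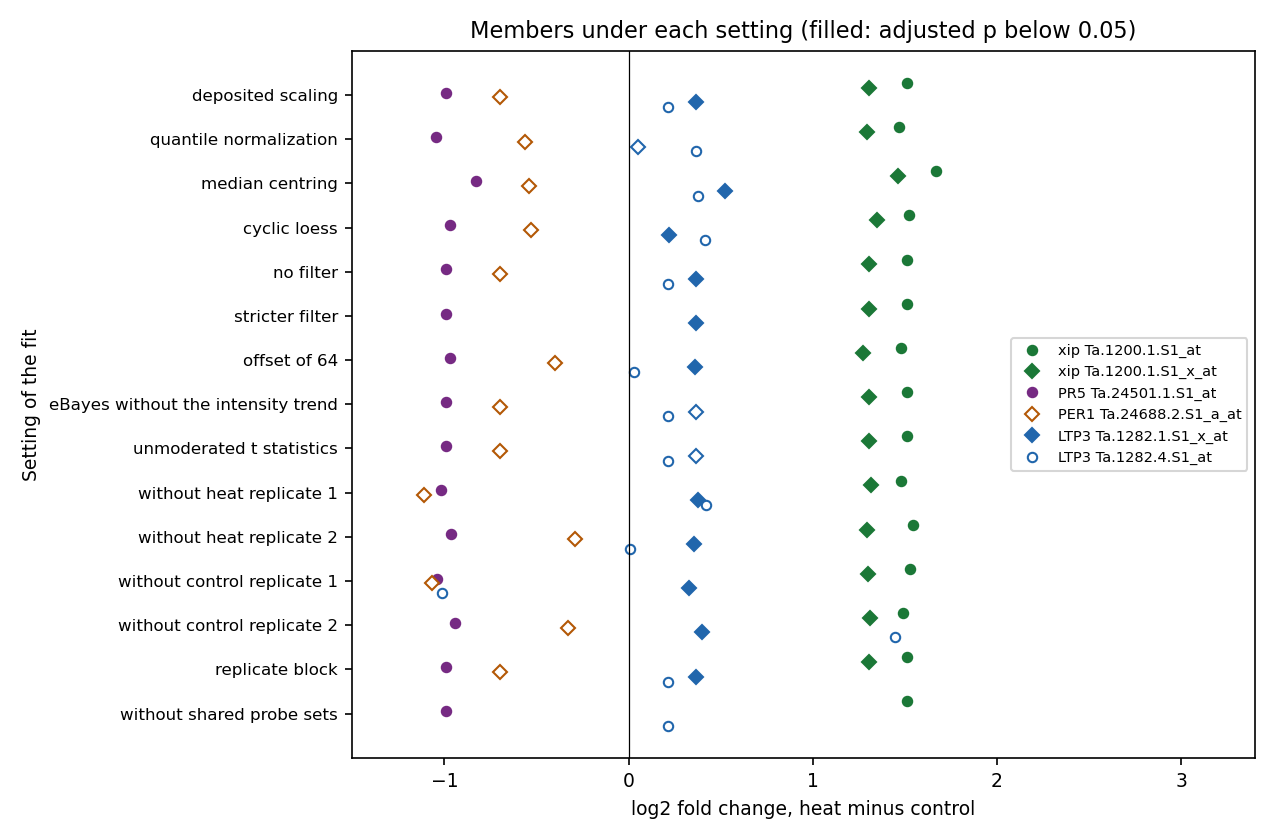
Log2 fold change (heat minus control) of the 6 tested probe sets under the deposited scaling and 14 other settings of the fit, 1 row each; filled points passed at an adjusted p below 0.05. Points of xip stay between 1.27 and 1.67 and those of PR5 between -1.04 and -0.83, all filled. Ta.1282.1.S1_x_at of LTP3 (blue diamonds) moves to 0.05 under quantile normalization, and PER1 is open throughout.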

How the data were processed

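The authors deposited linear MAS5 signal intensities for 61290 probe sets on 4 single-colour arrays (biotin-labelled cRNA). Per the submitters' processing notes they used Affymetrix Expression Console 1.1 and MAS5. No source used here gives the MAS5 settings. Their scaling is relative, so broad rises can lower other values. The 111 AFFX control probe sets were left out, and 64 reporter controls were not. Log2 intensities were tested as scaled, heat minus control, with limma 3.58.1 in R 4.3.3 (lmFit, eBayes with an intensity trend, two-sided, Benjamini-Hochberg over all 30590 tested probe sets), with 2 residual and 5.45 prior degrees of freedom. Precision is limited by having 2 arrays per group.

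Names came from the platform annotation (1273 probe sets with 1 symbol, 771 genes) and, for 770 of these genes, from a RefSeq table (assembly IWGSC CS RefSeq v2.1). That annotation is old. No build is tied to the array, so no coordinates are given. Wheat gene copies are nearly identical and can share a probe set. Genes were named by rule: all probe sets of the 4 genes, every named gene of the defence list, and the 3 nearest named genes. The genes and lists were chosen with earlier results of these data known. The words of the defence list were matched to gene symbols by hand after the gene table was seen.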

Additional observations from a re-analysis of the deposited data

How the results depend on the processing

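The fit gave 11332 calls in all and 4 for xip, PR5, PER1 and LTP3. Both calls of xip and that of PR5 held under each alternative that tested them (14, 13 and 14 alternatives), and PER1 had no call in any of 12. The LTP3 call on Ta.1282.1.S1_x_at held in 10 of 13. It was lost under quantile normalization (log2 0.050, adjusted p = 0.34), with eBayes without the intensity trend (0.36, adjusted p = 0.0689) and with unmoderated t statistics (0.36, adjusted p = 0.0725), the last 2 at an unchanged fold change. Without probe sets that can match several transcripts, an alternative chosen for these genes after the data were seen, 2 calls were left, because fewer probe sets were tested. The array then had 6998 calls, and 2593 with unmoderated t statistics. Of the other defence genes, each taken by its brightest tested probe set, 1 passed with median centring and 1 with unmoderated t statistics. Leaving out 1 array gave 7628 to 10665 calls, with the lone array assumed to vary like the other group. The log2 fold change of xip on Ta.1200.1.S1_at was then 1.48 to 1.54, and that of PR5 -1.04 to -0.94. For Ta.6572.3.S1_at of Prx1 it was 0.44 to 0.91. LTP3 then ranged from log2 0.33 to 0.40 on Ta.1282.1.S1_x_at and from -1.01 to 1.45 on Ta.1282.4.S1_at, where the sign turned without control replicate 1. The labels share replicate numbers between groups, but deviations of same-numbered arrays correlated at r = 0.0111 across probe sets, so no pairing was used. With a replicate block there were 11603 calls and the same 4 for these genes. For PER1 and Ta.1282.4.S1_at of LTP3, signals were low and the intervals of the fold change wide.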
